A study of Mus musculus with 28 samples.

Results

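The genes described here are 9 transcripts made by B cells and by the antibody-secreting plasma cells that B cells become: Cd79a, Cd79b, Ms4a1, Pax5, Ighm, Igkc, Jchain, Mzb1 and Tnfrsf17. They were chosen by name, as the rows of a liver read count table whose Ensembl identifiers carry these symbols, and all 9 were found among 49585 features. The table held 28 liver libraries from C57BL/6JOlaHsd mice aged 5 to 7 months, with 7 libraries for each genotype, WT or SIRT6-tg, in each sex. SIRT6-tg mice overexpress the deacylase SIRT6 from a transgene, and those of the study descend from a single transgenic line that was backcrossed to this strain. The promoter that drives the transgene is not given in the sources used here. WT mice were littermates, and all mice were fasted before sacrifice. Livers were taken out and frozen, and perfusion is not mentioned in the sources used here. No level here separates a smaller number of cells of a type from less RNA in each cell, since whole tissue was sequenced.

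B cells recognise antigen through a membrane immunoglobulin that is held by the signalling chains CD79a and CD79b. CD20, encoded by Ms4a1, sits in the same membrane, and the transcription factor PAX5 keeps the B-cell programme on and is switched off when a cell becomes a plasma cell. Ighm encodes the constant part of the IgM heavy chain and Igkc that of the kappa light chain, which B cells express at the membrane and plasma cells secrete in bulk. Jchain encodes the joining chain that links IgA and IgM into polymers, Mzb1 an endoplasmic reticulum protein that helps to assemble immunoglobulin, and Tnfrsf17 the survival receptor BCMA of plasma cells. In the liver such cells are few and lie in the sinusoids and around the portal tracts, and IgA that reaches the organ is carried into bile by the receptor encoded by Pigr.

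In GRCm38 coordinates the B-cell genes lie at chr7:24897381-24902197 on the plus strand (Cd79a, ENSMUSG00000003379.7), at chr11:106311341-106314762 on the minus strand (Cd79b, ENSMUSG00000040592.11), at chr19:11249675-11266241 on the minus strand (Ms4a1, ENSMUSG00000024673.9) and at chr4:44524757-44710487 on the minus strand (Pax5, ENSMUSG00000014030.15). The immunoglobulin constant genes lie at chr12:113418558-113422730 on the minus strand (Ighm, ENSMUSG00000076617.9) and at chr6:70726435-70726966 on the plus strand (Igkc, ENSMUSG00000076609.2). The plasma cell genes lie at chr5:88519809-88527891 on the minus strand (Jchain, ENSMUSG00000067149.6), at chr18:35647267-35649367 on the minus strand (Mzb1, ENSMUSG00000024353.4) and at chr16:11313812-11320074 on the plus strand (Tnfrsf17, ENSMUSG00000022496.5). Counts covered the exons of each gene. Of the exon bases of Mzb1 in Gencode vM21, 57.2% overlapped the gene SPATA24 on the same strand. If they also did in Gencode vM12, used for the counting, reads there could not be given to either gene. The level of Mzb1 is therefore uncertain. For Pax5, 8.60% of exon bases in vM21 overlapped Gm12462 and 5730488B01Rik on the other strand, and the strand setting of the counting is not stated.

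The RefSeq promoter table for GRCm38.p6 held 4 of the 9 genes (Cd79a, Pax5, Jchain and Tnfrsf17). The 250 bases before the RefSeq start are shown for Cd79a, a gene of B cells, and for Jchain, a gene of plasma cells, since these 2 stand for the B-cell and the secretory side of the comparisons that follow. They are chr7:24897247-24897496 on the plus strand and chr5:88527898-88528147 on the minus strand, written 5′ to 3′ on the strand of the gene, and capitals mark the E-box CAGGTG, a site class bound by E proteins.

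Cd79a: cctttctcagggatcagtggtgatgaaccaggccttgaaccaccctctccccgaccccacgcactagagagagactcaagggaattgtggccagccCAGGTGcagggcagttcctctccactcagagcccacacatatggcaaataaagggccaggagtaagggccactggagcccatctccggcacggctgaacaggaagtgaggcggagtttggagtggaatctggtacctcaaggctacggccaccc
Jchain: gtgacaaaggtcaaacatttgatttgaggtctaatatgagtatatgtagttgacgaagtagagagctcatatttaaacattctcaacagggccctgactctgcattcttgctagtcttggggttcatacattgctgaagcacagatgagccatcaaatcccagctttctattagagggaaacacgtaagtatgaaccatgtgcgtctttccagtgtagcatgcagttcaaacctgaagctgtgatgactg

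The letters CAGGTG stood from -154 to -149 before the RefSeq start of Cd79a and were in 17.2% of all 32851 windows of this length, on either strand. The gene start of Cd79a given above, chr7:24897381, lies inside the window, so part of the bases shown are within the annotated gene. How far the motif lies from the start thus depends on the annotation used. The octamer ATGCAAAT, found in immunoglobulin promoters, was in 1.6% of the windows and in none of these 4, which says only that the letters are not in these windows. The letters TATAAA stood from -114 to -109 in the Tnfrsf17 window and were in 12.4% of all windows.

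The libraries held 18758863 to 35393069 counts each. Sirt6 itself followed the labels, with 1.69 to 3.23 CPM in WT and 198 to 358 CPM in SIRT6-tg males, and 1.80 to 6.21 CPM in WT and 16.4 to 50.2 CPM in SIRT6-tg females, where CPM is the count of a gene scaled to a common library total with TMM factors, and all levels below are in CPM unless said otherwise. The hepatocyte markers Alb, Apoa1, Ttr and Serpina1a summed to 84964 to 176911 CPM in every library, while Cd79a, Cd79b, Ms4a1 and Pax5 were each at most 5.34 CPM in any library, so B-cell transcripts were rare in these livers. The scaling factors were higher in male WT than in the other groups. With library size alone, the median log2 difference of all genes between male SIRT6-tg and WT was -0.22 in place of 0.06, and changes in males are to be read against that shift.

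Compared per kilobase of exon, Igkc was the most abundant of the 9 in male WT livers at 125 ± 42.9 CPM per kb (SD, n = 7), followed by Ighm at 18 ± 9.57 and Jchain at 9.96 ± 4.22. The receptor chains Cd79b and Cd79a were at 2.40 ± 0.440 and 1.19 ± 0.337 CPM per kb. Mzb1 was at 0.824 ± 0.229, Ms4a1 at 0.419 ± 0.205, Pax5 at 0.207 ± 0.0541 and Tnfrsf17 at 0.0440 ± 0.0421 CPM per kb. The place of Mzb1 in this order is uncertain because of its overlap with SPATA24. The order of the mean levels was the same in male SIRT6-tg, where Igkc was at 42.6 ± 33, Ighm at 12.3 ± 14.2, Jchain at 2.85 ± 1.79 and Pax5 at 0.135 ± 0.0398 CPM per kb. In male WT the levels of Ighm and Jchain, of Cd79a and Mzb1, of Mzb1 and Ms4a1 and of Ms4a1 and Pax5 lay within 1 SD of each other when both SDs are counted, and the other neighbours in this order did not. Across the 4 groups, the mean CPM of each gene except Tnfrsf17 was highest in male WT and lowest in male SIRT6-tg, with both female groups between them.

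The comparison of SIRT6-tg with WT asks what the transgene goes with in the liver of each sex. In males, 5 of the 9 genes fell and none rose: Cd79a and Ms4a1 of the B-cell genes, and Igkc, Jchain and Mzb1 of the secretory genes, by 1.77-fold for Cd79a to 3.49-fold for Jchain. The test was edgeR's quasi-likelihood test on 21583 genes with Benjamini-Hochberg adjustment and a threshold of 0.05. Of all genes tested in males, 11.0% were lower and 9.68% higher by the same rule. None of the 9 genes had ranges that did not overlap between male groups, as 4.37% of all genes tested had in this direction.

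**Figure D1:**
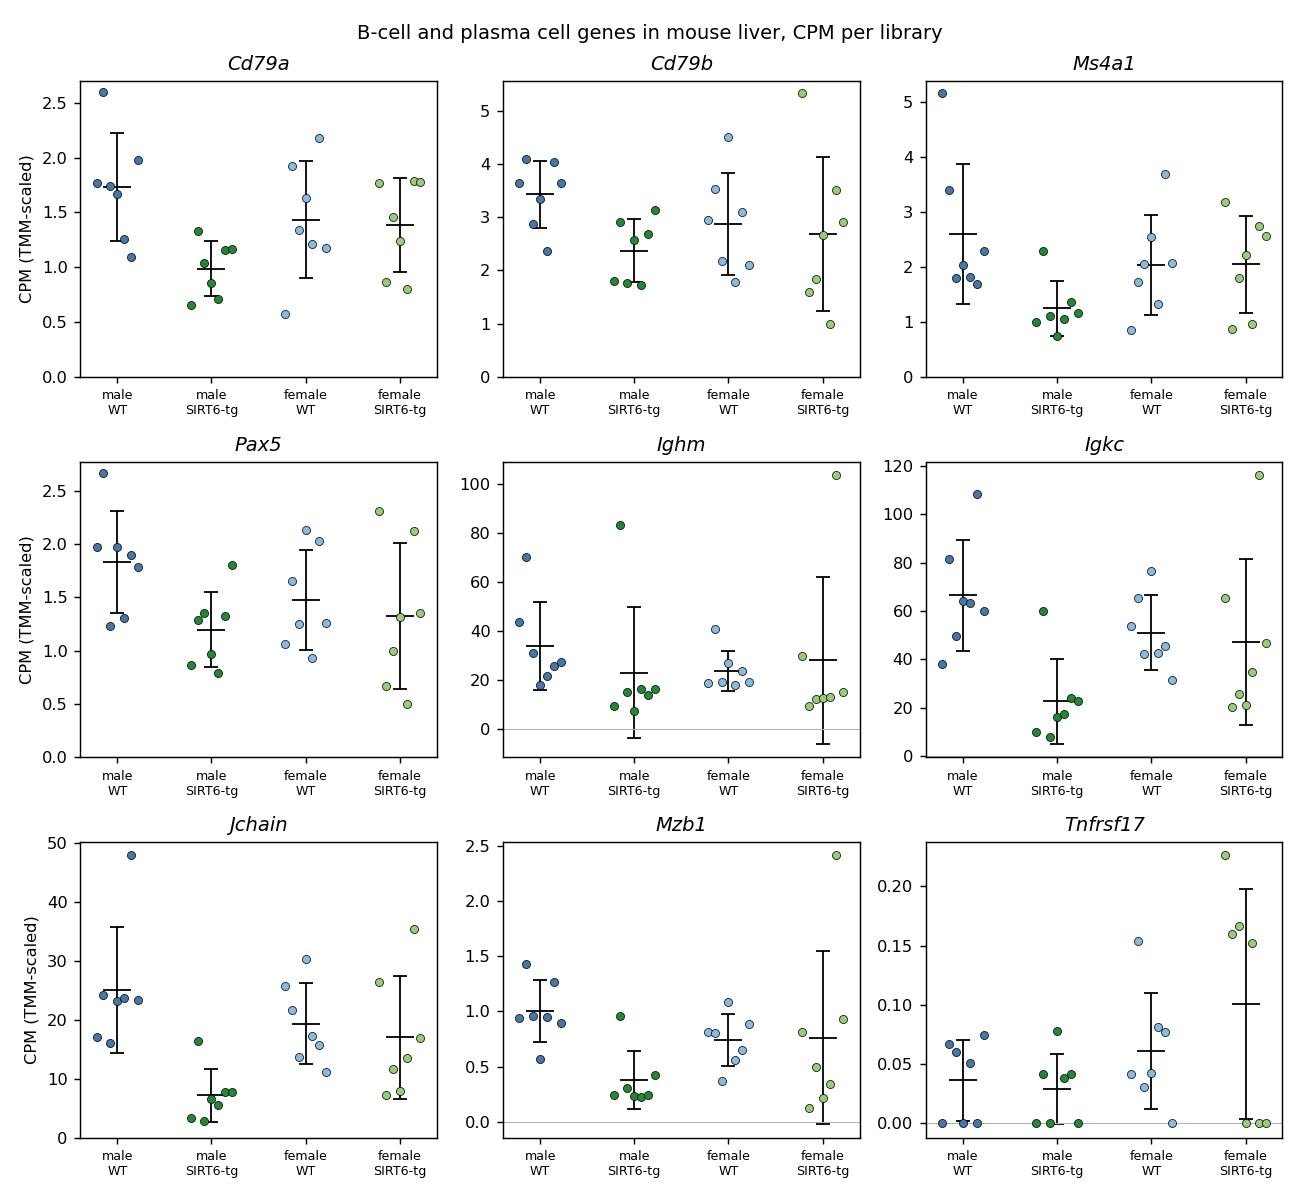
CPM (TMM-scaled, y axis from 0, or from below it where a deviation bar reaches there) of each of the 9 genes in every library, by group; points are libraries in replicate order, lines are the mean and the standard deviation of 7. In male SIRT6-tg all but 1 library lie below every male WT library for Ms4a1, Ighm, Igkc, Jchain and Mzb1, and the library that stands apart at 83.5 CPM of Ighm is replicate 2.

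Cd79a, whose protein carries the signal of the B-cell receptor into the cell, was at 1.10, 1.74 and 2.60 CPM (lowest, median and highest) in male WT and at 0.658, 1.04 and 1.33 CPM in male SIRT6-tg. Of the 7 SIRT6-tg livers, 4 lay below every WT liver. Cd79a fell, with a log2 fold change of -0.82 (SE 0.24, adjusted p = 0.0156).

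Its partner Cd79b was at 2.36, 3.64 and 4.10 CPM in male WT and at 1.72, 2.56 and 3.13 CPM in male SIRT6-tg, with 3 of 7 SIRT6-tg livers below every WT liver. The log2 fold change of -0.54 (SE 0.25, adjusted p = 0.133) did not pass the test. It passed with library size alone (-0.84, adjusted p = 0.0133) and with males fitted without females (-0.57, adjusted p = 0.0250).

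Ms4a1, which encodes CD20, was at 1.69, 2.03 and 5.15 CPM in male WT and at 0.738, 1.11 and 2.29 CPM in male SIRT6-tg. The highest WT value came from replicate 1, and 6 of 7 SIRT6-tg livers lay below every WT liver. Ms4a1 fell, with a log2 fold change of -1.07 (SE 0.32, adjusted p = 0.0157). Without male WT 1 it was -0.83 and no longer passed (adjusted p = 0.0513).

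Pax5, the transcription factor that holds B-cell identity, was at 1.23, 1.90 and 2.66 CPM in male WT and at 0.787, 1.29 and 1.80 CPM in male SIRT6-tg. The groups overlapped, with 3 of 7 SIRT6-tg livers below every WT liver. The log2 fold change of -0.62 (SE 0.27, adjusted p = 0.0991) did not pass the test, but did with library size alone (-0.91, adjusted p = 0.0119) and with males fitted without females (-0.66, adjusted p = 0.0358). Under each of these 2 settings 7 of the 9 genes were lower in males, where 18.9% of all genes tested were lower with library size alone and 11.2% with males fitted without females.

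Ighm, the IgM heavy chain, was at 17.9, 27.3 and 70.5 CPM in male WT and at 7.34, 15.3 and 83.5 CPM in male SIRT6-tg. Of the SIRT6-tg livers, 6 lay below every WT liver and replicate 2 above every one. Across all 7 the log2 fold change was -0.55 (SE 0.53, adjusted p = 0.515), with a 95% interval from -1.59 to 0.48. Without male SIRT6-tg 2 it was -1.39 and passed (adjusted p = 0.0374), so that 1 library decides the call of Ighm.

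Igkc, the kappa constant gene, was at 38.1, 63.3 and 108 CPM in male WT and at 7.78, 17.6 and 60.1 CPM in male SIRT6-tg. The highest SIRT6-tg value was again replicate 2, and the other 6 lay below every WT liver. Igkc fell, with a log2 fold change of -1.55 (SE 0.40, adjusted p = 0.00612), and -2.03 without that library (adjusted p = 0.000219).

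Jchain was at 16, 23.3 and 47.9 CPM in male WT and at 2.90, 6.56 and 16.4 CPM in male SIRT6-tg. The joining chain gene was the most reduced of the 9, with 6 of 7 SIRT6-tg livers below every WT liver and replicate 2 level with the lowest WT liver. The log2 fold change was -1.80 (SE 0.37, adjusted p = 0.000744), and it lay between -2.17 and -1.57 when any 1 of the 28 libraries was left out.

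Mzb1 was at 0.567, 0.954 and 1.43 CPM in male WT and at 0.225, 0.248 and 0.957 CPM in male SIRT6-tg. These stand for 17 to 43 counts in a WT library and 6 to 23 in a SIRT6-tg library. The chaperone gene fell with a log2 fold change of -1.41 (SE 0.44, adjusted p = 0.0207), and 6 of 7 SIRT6-tg livers lay below every WT liver.

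Tnfrsf17 was hardly detected. Its counts per library were 0 to 3 in male WT, 0 to 2 in male SIRT6-tg, 0 to 4 in female WT and 0 to 5 in female SIRT6-tg, and summed over 7 libraries they were 8, 5, 11 and 18. A count of 0 allows up to 3 counts in that library, so a change of BCMA was not detectable at this depth. These limits cover counting error only.

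In females, 0 of the 9 genes passed, and 0.0278% of all genes tested did (6 genes, with 1212 at an unadjusted p under 0.05). Cd79a was at 0.572, 1.34 and 2.18 CPM in female WT and at 0.80, 1.46 and 1.78 CPM in female SIRT6-tg, and its log2 fold change was -0.06 (SE 0.24, 95% interval -0.54 to 0.41). Jchain was at 11.2, 17.3 and 30.3 CPM in female WT and at 7.24, 13.5 and 35.5 CPM in female SIRT6-tg, and its log2 fold change was -0.19 (SE 0.36, 95% interval -0.89 to 0.51). For these 2 genes the ranges of the groups overlapped.

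The other female log2 fold changes lay between -0.17 (Pax5) and 0.23 (Ighm), leaving out Tnfrsf17, and all 9 genes had an adjusted p of 0.999875 by the quasi-likelihood test, which is no measure of likeness. Ighm, Igkc and Mzb1 had their largest SDs in female SIRT6-tg. Ighm ran there from 9.51 over 13.4 to 104 CPM, against 18.2, 19.3 and 40.9 CPM in female WT, and Mzb1 from 0.128 over 0.50 to 2.41 CPM, against 0.367, 0.806 and 1.09 CPM. Replicate 6 gave the highest female value of Ighm, Igkc, Jchain and Mzb1. Without it the log2 fold change of Ighm in females turned from 0.23 to -0.63 and that of Mzb1 from 0.01 to -0.62, and neither passed (adjusted p = 0.899 and 0.876).

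Testing whether the SIRT6-tg effect differed between males and females called 0 of the 9 genes, while 3.84% of all genes tested were called in the direction of a lower effect in males. Sirt6 was at 198 to 358 CPM in SIRT6-tg males and at 16.4 to 50.2 CPM in SIRT6-tg females. Sex and the level of the transgene therefore cannot be told apart in this test. Jchain had the largest difference with a log2 value of -1.61 (SE 0.51, unadjusted p = 0.00388, adjusted p = 0.0656), followed by Igkc at -1.44 (adjusted p = 0.145) and Mzb1 at -1.41 (adjusted p = 0.194). A male effect that passed the test beside a female one that did not was thus not shown to differ for any of the 9. Jchain passed this test with library size alone (-1.90, adjusted p = 0.0113), with the expression filter of edgeR (-1.63, adjusted p = 0.0435), with DESeq2 (-1.66, adjusted p = 0.0135), and without male SIRT6-tg 2 (-1.97, adjusted p = 0.0136). Igkc passed with library size alone (-1.71, adjusted p = 0.0437) and without male SIRT6-tg 2 (-1.91, adjusted p = 0.0211).

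Between male and female WT livers, 0 of the 9 genes passed either, where 12.4% of all genes tested did. The log2 values of male against female were 0.26 for Cd79b, 0.28 for Cd79a, 0.37 for Jchain, 0.44 for Mzb1 and 0.51 for Ighm, each within 2 standard errors of 0.

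Most other immunoglobulin constant genes also fell in males. Of 10 tested besides Igkc and Ighm, 8 fell and none rose, where 11.0% of all genes tested fell and 9.68% rose. Over the whole list of 13, Igkc and Ighm included, 12 could be tested and 9 fell, and the median log2 fold change was -1.52 beside 0.06 over all genes tested. Under 5 other scalings or tools 9 to 10 fell, and with any 1 library left out 7 to 11. In females 0 of 12 passed and the median was -0.18.

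Igha, the IgA heavy chain, had the lowest adjusted p of the constant genes. It was at 26.0, 62.9 and 91.8 CPM in male WT and at 5.98, 9.02 and 13.3 CPM in male SIRT6-tg. The 7 SIRT6-tg livers thus lay below all 7 WT livers, as was so for 4.37% of all genes tested. The log2 fold change was -2.67 (SE 0.30, adjusted p = 3.00e-07), a 6.38-fold lower level. In females it was at 22.2, 33.2 and 66.3 CPM in WT and at 12.5, 22.8 and 37.5 CPM in SIRT6-tg, with a log2 fold change of -0.51 (SE 0.28, adjusted p = 0.962). For Igha the difference between the sexes passed the test (log2 -2.17, SE 0.41, adjusted p = 0.00207), which was so for no other constant gene. Here too, sex and the level of the transgene cannot be told apart.

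Of the IgG heavy chains, Ighg2c fell by 1.84 on the log2 scale (SE 0.41, adjusted p = 0.00173), Ighg1 by 1.35 (SE 0.41, adjusted p = 0.0169) and Ighg2b by 1.16 (SE 0.33, adjusted p = 0.0128) in males. The fall of Ighg3, with a log2 fold change of -3.38 (adjusted p = 0.0146), rested on male WT 2, which held 408 of the 502 counts of that group, and without it the value was -1.21 (adjusted p = 0.301). With each sex fitted separately it did not pass either (adjusted p = 0.0581). The IgD heavy chain Ighd of naive B cells had a log2 fold change of -0.72 (SE 0.24, adjusted p = 0.0307), which no longer passed without male WT 2, 4 or 7 or male SIRT6-tg 1, 4, 5 or 7 (adjusted p = 0.0611 without male WT 2). The lambda constant genes Iglc1 and Iglc2 fell by 1.71 (SE 0.32) and 1.48 (SE 0.36) on the log2 scale (adjusted p = 0.000176 and 0.00343). Iglc1, Iglc2 and Iglc3 are close copies of each other, as are the Ighg genes, so how reads were split among them is uncertain.

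**Figure D2:**
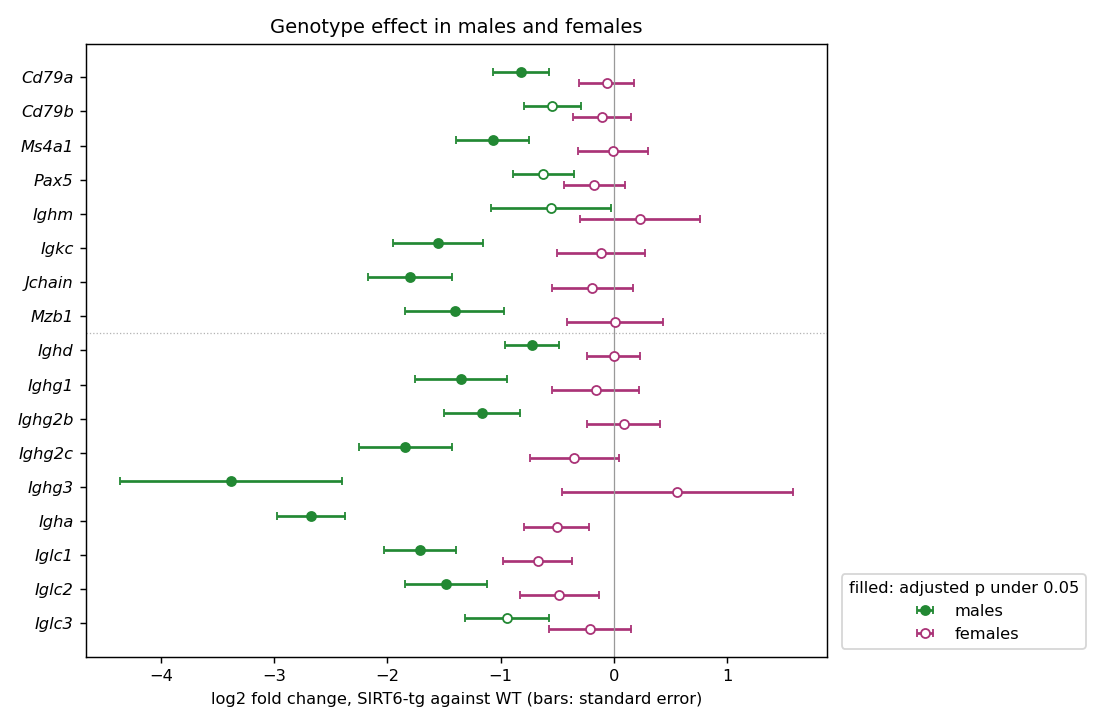
Log2 fold changes of SIRT6-tg against WT in males and females for 8 of the 9 genes (above the dotted line) and for other immunoglobulin constant genes; bars are standard errors and filled points have an adjusted p under 0.05. Every male value lies below 0, from -0.54 for Cd79b to -3.38 for Ighg3, and no female point is filled.

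Heavy-chain counts were also read as shares, since a share within a library does not depend on the scaling. IgM, IgD, IgG, IgA and IgE genes together had 556 to 5576 counts in each library. In male WT, Igha made up 46.0% ± 15.9 (SD, n = 7) of heavy-chain constant counts and Ighm 28.6% ± 15.9. In male SIRT6-tg, Igha made up 26.1% ± 10.5 and Ighm 45.9% ± 14.6. The difference in the Igha share had an exact two-sided permutation p of 0.0204 and in the Ighm share of 0.0583 (7 against 7, smallest possible p 0.000583), and neither passed after adjustment over 27 shares and comparisons (adjusted p = 0.138 and 0.262).

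The IgD share was higher in male SIRT6-tg at 4.94% ± 1.85 than in male WT at 2.5% ± 0.655, with 6 of 7 SIRT6-tg livers above every WT liver (exact permutation p = 0.0035, adjusted p = 0.0472). The Ighg2b share was lower in male WT at 8.34% ± 1.70 than in female WT at 11.2% ± 1.28, with 5 of 7 male livers below every female liver (exact permutation p = 0.00175, adjusted p = 0.0472). Both were just inside the threshold and were lost with all constant genes as the denominator (adjusted p = 0.0787 for each). The IgD call was also lost without male WT 2, 3, 4, 5, 6 or 7 or male SIRT6-tg 1, 3, 4, 6 or 7, and the Ighg2b call without male WT 5, 6 or 7 or female WT 3 or 5. Without male WT 2 the Igha share passed in males instead, with a difference of -24.6 percentage points (exact permutation test, adjusted p = 0.0393). In females the Igha share was 34.2% to 52.5% in WT and 18.3% to 47.8% in SIRT6-tg (exact permutation p = 0.357, adjusted p = 0.606). Igkc made up 92.5% to 93.9% of light-chain constant counts on average in each of the 4 groups, with no difference called.

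**Figure D3:**
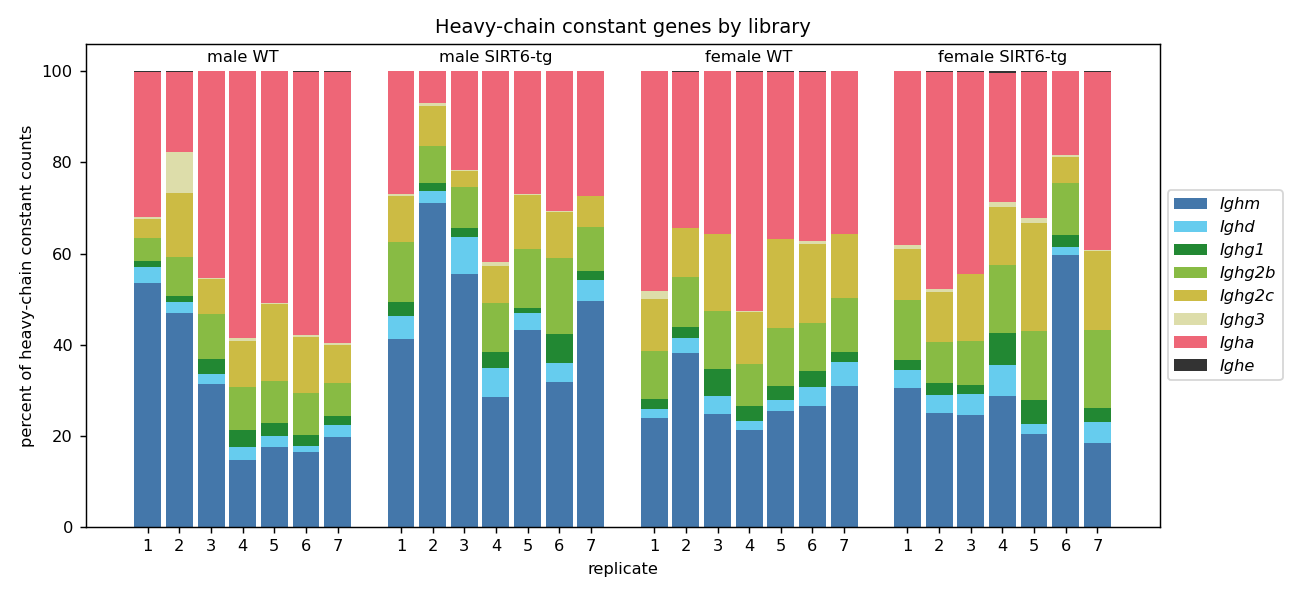
Share of each heavy-chain constant gene in the heavy-chain constant counts of every library (y axis in percent, 1 bar per library, 7 libraries a group). Igha is the largest part of most male WT bars and Ighm of most male SIRT6-tg bars, with Ighm at 71.2% in male SIRT6-tg 2 and 59.7% in female SIRT6-tg 6.

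Variable segments were counted as separate genes. The table listed 185 Ighv, 160 Igkv and 3 Iglv segments, and 113, 109 and 3 of them had a count in at least 1 library. Near-identical segments share reads and the authors kept only uniquely mapped ones, so single segment counts are uncertain. Median kappa segment counts per library were 540 in male WT, 114 in male SIRT6-tg, 531 in female WT and 401 in female SIRT6-tg, and the median number of kappa segments seen was 70, 46, 69 and 63. The number seen depends on the counts of a library and was not compared at equal counts.

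The most counted kappa segment of a library held 9.38% to 21.7% of kappa segment counts in male WT, 7.89% to 13.2% in male SIRT6-tg, 6.36% to 8.93% in female WT and 7.65% to 50.1% in female SIRT6-tg. The share was higher in male WT than in female WT in 7 of 7 livers (12.6% ± 4.37 against 8.02% ± 0.890, exact permutation p = 0.000583, the smallest that 7 against 7 can give, adjusted p = 0.00524 over 9 comparisons). In female SIRT6-tg it was 15.9% ± 15.2, with 6 of 7 livers above every female WT liver (exact permutation p = 0.00758 against female WT, adjusted p = 0.0341), a call that was lost without female SIRT6-tg 6 (adjusted p = 0.0603) and without any 1 of the 7 female WT libraries. With heavy and kappa segments pooled as the denominator neither call held (adjusted p = 0.0892 and 0.115). In males the share did not differ by genotype beyond the spread (exact permutation p = 0.165, adjusted p = 0.371). Kappa segment counts per library were 468 to 1035 in male WT and 90 to 553 in male SIRT6-tg, and shares were not compared at equal counts.

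**Figure D4:**
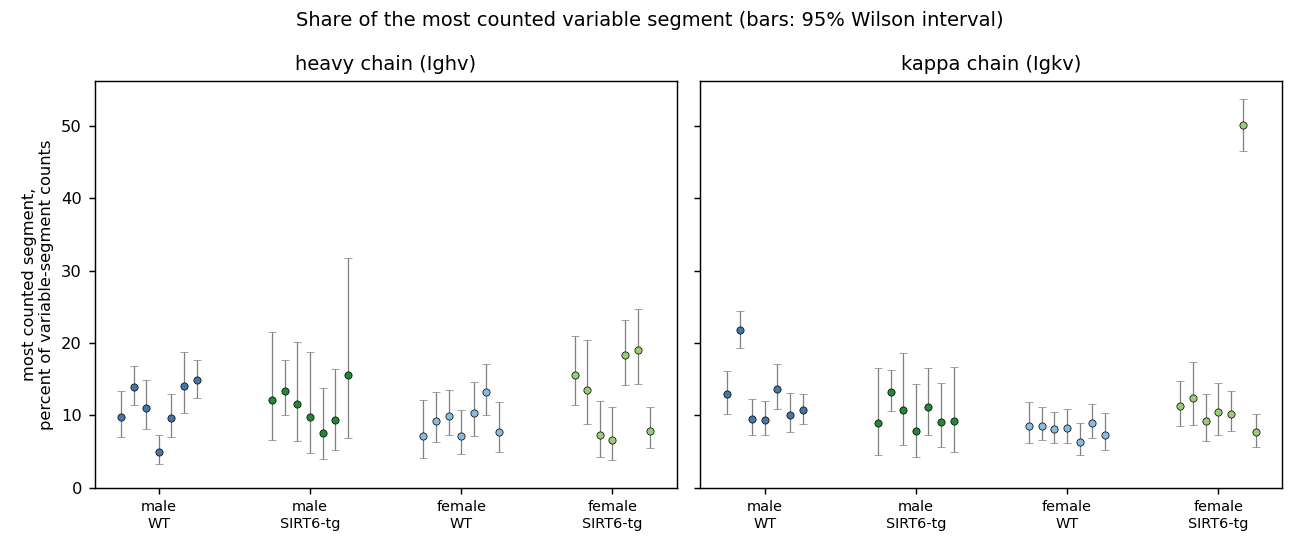
Share of the most counted variable segment among heavy-chain (left) and kappa (right) segment counts of each library, in percent, with 95% Wilson intervals that cover counting error only. Female SIRT6-tg 6 stands at 50.1% in the kappa panel, above every other library.

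In female SIRT6-tg 6, Igkv3-2 had 371 of 741 kappa segment counts, or 50.1% with a 95% Wilson interval from 46.5% to 53.7%. In the other libraries its share was at most 8.58%, and its median share over the 28 was 1.86%. Igkv3-2 lies at chr6:70698449-70699067 on the plus strand of GRCm38. The last 300 of its 359 coding bases in the Gencode vM21 transcript are shown because this segment dominates that library, and capitals mark the 20 bases that differ from Igkv3-1, its nearest of 99 other kappa segments.

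Igkv3-2: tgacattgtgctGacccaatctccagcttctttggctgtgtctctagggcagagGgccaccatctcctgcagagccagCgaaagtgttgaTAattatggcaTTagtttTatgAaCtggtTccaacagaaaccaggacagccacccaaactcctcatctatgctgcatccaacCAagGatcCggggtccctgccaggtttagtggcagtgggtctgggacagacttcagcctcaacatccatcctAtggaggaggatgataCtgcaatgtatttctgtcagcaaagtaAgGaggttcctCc

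Igkv3-1 matched 92.8% of the coding sequence and Igkv3-4 matched 91.4%. Igkv3-1 had at most 25 counts in any library. The same liver had the highest female SIRT6-tg share of Ighm, at 59.7%, and Ighv1-53 was its most counted heavy-chain segment with 41 of 216 counts (19%, interval 14.3% to 24.7%).

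The pathways of the 9 genes were counted over lists that were chosen with earlier results of these data known, so their counts describe and do not test the lists. They stand beside 11.0% of all genes tested that fell and 9.68% that rose in males. Some lists hold members of the 9, and these are counted in them. Without them, 8 of 11 genes of the receptor complex fell (Cd79a, Cd79b and Ms4a1 left out), 6 of 12 transcription factor genes (Pax5 left out), 11 of 13 survival genes (Tnfrsf17 left out) and 4 of 11 plasma cell genes, where 1 rose (Jchain, Mzb1 and Tnfrsf17 left out). Of 14 genes of the B-cell receptor complex and its coreceptors, 10 fell and none rose in males, with a median log2 fold change of -0.97. Cd72 and Cd22, inhibitory receptors of B cells, fell by 1.54 (SE 0.20, adjusted p = 1.02e-06) and 1.36 (SE 0.18, adjusted p = 2.29e-06) on the log2 scale. For both, the 7 SIRT6-tg livers lay below the 7 WT livers, as for 4.37% of all genes tested. Cd180, a receptor related to the toll-like receptors, fell by 1.88 (SE 0.29), and Siglecg, another inhibitory receptor, by 1.02 (SE 0.26).

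Of 14 genes of B-cell receptor signalling, 11 fell, none rose, and the median was -1.08. The kinase genes Syk and Btk fell by 1.28 (SE 0.16) and 1.24 (SE 0.19), the kinase subunit gene Pik3cd by 1.49 (SE 0.17) and the exchange factor gene Vav1 by 1.55 (SE 0.20). Syk, Pik3cd and Vav1 are also expressed by other leukocytes, while Btk is shared with myeloid cells. Of 13 B-cell transcription factor genes, 6 fell and none rose, with a median of -0.78. Irf8 fell by 1.74 (SE 0.17), Ikzf3 by 2.23 (SE 0.32), Bcl11a by 1.59 (SE 0.33) and Pou2f2 by 1.14 (SE 0.26), and these 4 are again not limited to B cells.

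Of 14 plasma cell genes, 6 fell, 1 rose and 7 did not pass, with a median of -0.32. Slamf7, a surface receptor of plasma cells and of cytotoxic lymphocytes, had a log2 fold change of -3.27 (SE 0.28, adjusted p = 5.84e-09). Prdm1, the transcription factor of plasma cell fate that T cells and Kupffer cells also use, fell by 1.88 (SE 0.25, adjusted p = 2.13e-06), Irf4 by 1.26 (SE 0.22) and the ectoenzyme gene Cd38 by 0.66 (SE 0.15). Xbp1, which drives secretion in plasma cells and in hepatocytes alike, rose by 0.45 (SE 0.13, adjusted p = 0.0113), at 189 to 307 CPM in male WT and 265 to 383 CPM in male SIRT6-tg. Its rise was lost with library size alone (0.16, adjusted p = 0.459) and with upper-quartile factors (0.36, adjusted p = 0.0548).

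Of 14 genes of B-cell survival and homing, 11 fell and none rose, with a median of -1.40. The homing receptor gene Cxcr4 fell by 1.99 (SE 0.23), Cd40, the receptor for T-cell help, by 2.12 (SE 0.26), Il21r by 2.39 (SE 0.24) and the lymphotoxin gene Ltb by 1.63 (SE 0.26). Whether these 4, like the receptor genes above, fell in B cells or in other cells was not tested. Cxcr5 fell too, at 0.867 to 1.40 CPM in male WT and 0.576 to 1.04 CPM in male SIRT6-tg. Ccr6, Tnfsf13 and Tnfrsf17 did not pass. Of 5 germinal centre genes tested, 3 fell, namely Mybl1 (-1.14), Gcsam (-1.94) and S1pr2 (-0.38), and Bcl6 at -0.30 (adjusted p = 0.761) did not pass. Of 6 genes of antibody transport and Fc receptors, 4 fell and 2 rose. The ones that fell were the receptor genes Fcgr1, Fcgr3 and Fcgr4 and their signalling chain Fcer1g, with Fcgr4 at -1.85 (SE 0.29) and Fcer1g at -1.36 (SE 0.20), all used by Kupffer cells and other myeloid cells. Pigr and Fcgrt, which rose, lost their call with library size alone, and with any 1 library left out 0 to 2 of the 6 rose. In females none of the genes in any of these lists passed. Over 5 other scalings or tools, the number that fell in males ran from 10 to 12 of 14 for the receptor complex, from 6 to 9 of 13 for the transcription factors, and stayed at 11, 6 and 11 of 14 for signalling, plasma cell and survival genes. With any 1 library left out 8 to 11 genes of the receptor complex, 10 to 11 of signalling, 6 to 8 transcription factors, 6 plasma cell genes and 8 to 11 survival genes fell, and with other filters or a replicate block 8 to 9 of the survival genes.

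Markers of other cells moved in males beside these genes, where 11.0% of all genes tested fell and 9.68% rose. All 10 T-cell markers fell, with a median log2 fold change of -2.24, and their summed level was 17.2 to 48.9 CPM in male WT and 5.22 to 8.21 CPM in male SIRT6-tg. Of 6 natural killer cell markers 4 fell (6.22 to 37.0 against 1.32 to 4.17 CPM for the sum of 6). These were Nkg7, Eomes, Prf1 and Gzma, while Ncr1 and Klrb1c did not pass. All 6 Kupffer cell markers fell (296 to 985 against 254 to 431 CPM). All 4 leukocyte genes fell with a median of -1.49, from a sum of 94.1 to 187 CPM to one of 39.5 to 61.6 CPM, and Ptprc, the pan-leukocyte gene, fell by 1.71 on the log2 scale. Of 6 plasmacytoid dendritic cell markers, which share Tcf4 and Bst2 with other cells, 2 fell (208 to 531 against 169 to 375 CPM), and 1 to 5 did under other scalings or tools. The 5 red blood cell genes had 202 to 504 CPM in male WT and 186 to 733 CPM in male SIRT6-tg, and 1 of them, Alas2, rose, though not with library size alone. Of 4 hepatocyte markers, 2 rose, Serpina1a by 0.39 and Alb by 0.35, and neither did with library size alone (0.09 and 0.07), while 0 to 3 of the 4 rose with any 1 library left out. Of the plasma cell markers, members of the 9 included, 3 of 5 fell (20.1 to 54.5 against 5.84 to 18.7 CPM). No marker of these lists was at 0 in all 7 libraries of a group, and in females 0 markers passed. In male against female WT, 9 of 10 T-cell and 4 of 6 natural killer markers were higher, with 3 of 4 leukocyte genes. Higher too were 1 of 6 Kupffer cell markers and 7 of 14 survival and homing genes, and none in these lists was lower. Of all genes tested, 12.4% differed in either direction. The falls in males were thus measured from a WT group that stood above female WT for many of these genes. The summed T-cell level in female WT was 5.85 to 18.4 CPM. The part of each cell type in the results above was not tested.

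Because the leukocyte genes fell as a whole, the 9 genes were also set against them as log2 ratios, which are given as a description. The SDs are the spread of single livers and not the error of a difference in means. A difference within them is therefore not shown to be absent, and no ratio was tested. Against Ptprc, the mean log2 ratio of Cd79b was -3.47 ± 0.308 (SD, n = 7) in male WT and -2.35 ± 0.30 in male SIRT6-tg, and that of Pax5 was -4.39 ± 0.380 and -3.34 ± 0.350. These 2 and Cd79a (0.87 higher) stood above WT in male SIRT6-tg by more than the 2 SDs together. For Ms4a1 (0.65 higher) and Ighm (0.77 higher) the difference was within them. The ratio of Jchain to Ptprc was -0.66 ± 0.499 and -0.92 ± 0.680, and that of Igkc 0.76 ± 0.434 and 0.66 ± 0.788, both again within the SDs. Against the T-cell gene Cd3e the ratio of Cd79a was -0.72 ± 0.754 in male WT and 0.98 ± 0.508 in male SIRT6-tg, which is beyond the SDs, while Igkc (0.72), Jchain (0.57) and Mzb1 (0.94) stood higher against Cd3e by less than theirs. Against Cd79a, the ratio of Jchain was 3.82 ± 0.81 in male WT and 2.69 ± 0.655 in male SIRT6-tg, and the differences of Jchain (-1.13), Igkc (-0.98) and Mzb1 (-0.76) were all within the 2 SDs together. In females the corresponding differences from WT were at most 0.28 in size against Ptprc or Cd3e, and -0.31, -0.32 and -0.46 for Jchain, Igkc and Mzb1 against Cd79a.

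The 9 genes also varied among livers of the same group. After centring log2 CPM on each group, 24 of 36 pairs of genes were correlated over the 28 libraries at an adjusted p under 0.05, by Pearson's r with 100000 permutations within groups, and these 24 were among the 25 that passed by Spearman's rho. The B-cell genes Cd79a, Cd79b, Ms4a1 and Pax5 varied together, with r from 0.57 to 0.88 and rho from 0.61 to 0.87 (highest permutation adjusted p = 0.00745). Igkc, Jchain and Mzb1 did so with r from 0.74 to 0.97 and rho from 0.65 to 0.96 (highest permutation adjusted p = 0.000405). Igkc and Jchain were the closest pair (r = 0.97, rho = 0.96, and r = 0.95 without the 2 libraries farthest from the median of Igkc).

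Between the B-cell and the secretory genes r was lower, from 0.25 for Cd79a with Jchain to 0.62 for Cd79b with Jchain, and 8 of 12 pairs passed (rho from 0.18 to 0.72). Ighm was correlated with both sets, with r from 0.50 to 0.62 for B-cell genes and from 0.62 to 0.80 for secretory genes. Each r was also taken without the 2 libraries farthest from the median of the pair's first gene, as ordered at the start. All 24 pairs then kept their sign and 19 had an r over 0.5. Ighm with Jchain went from 0.62 to 0.34 and with Igkc from 0.73 to 0.44. Libraries apart only in the second gene were not left out by this rule. No pair with Tnfrsf17 passed, with r from -0.24 to 0.06. All pairs share their libraries and scaling, and whether the higher r within a set differs from that between sets was not tested.

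**Figure D5:**
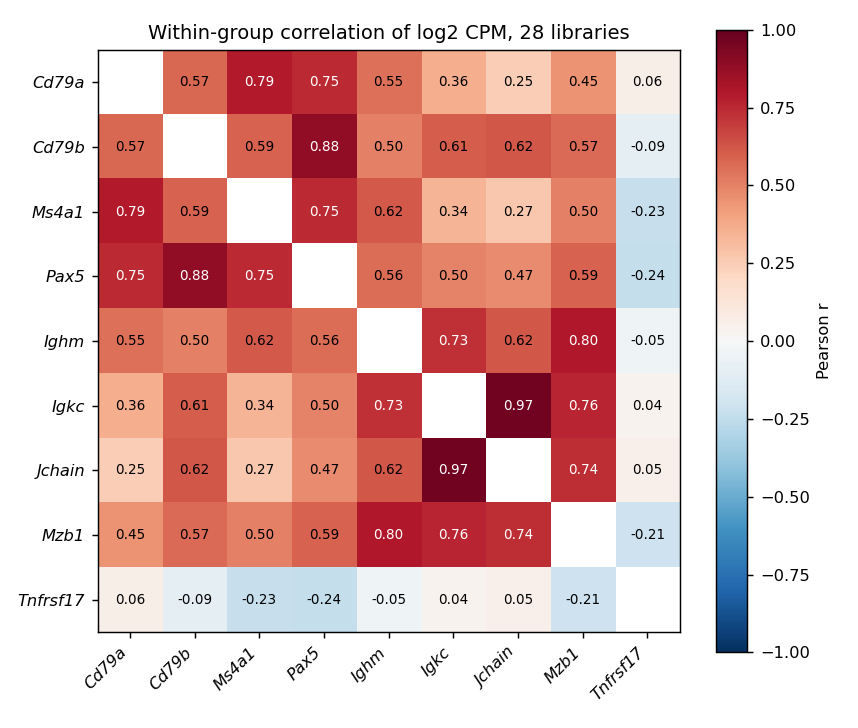
Pearson's r of log2 CPM centred on each group, for each pair of the 9 genes over 28 libraries (colour scale from -1 to 1). The 4 B-cell genes form a block with r of 0.57 to 0.88 and Igkc, Jchain and Mzb1 one with r of 0.74 to 0.97.

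Among 13490 genes with a mean of at least 0.5 CPM, immunoglobulin segments left out, those most like Cd79a within groups were Ms4a1 (r = 0.79), H2-DMb2 (r = 0.76), which encodes a chain of the peptide exchange factor for class II molecules, Pax5 (r = 0.75) and Zfp87 (r = 0.71). Those most like Jchain were Gm6472 (r = 0.78), Abhd17b (r = 0.76), Bambi (r = 0.76), Coprs (r = 0.74) and Mzb1 (r = 0.74). These are descriptions over 28 libraries, ranked among many genes.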

How the data were processed

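The authors deposited raw read counts per gene, 1 column per liver library, with no normalization. Per the labels and the methods, NEBNext Ultra libraries were sequenced single-end, reads were aligned to mm10 with STAR 2.5.0a, and uniquely mapped reads were counted on Gencode vM12 with HTSeq. Groups and replicate numbers came from the sample titles. Per the study, each library is an individual mouse. No 2 libraries of a group agreed within sampling noise (chi-square per gene of at least 13.1).

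Symbols came from Gencode vM21 of the same build, for 49326 of 49585 features. With the cut-off that the study gives for its pathway analysis, 21583 genes were kept here as expressed. They had a mean normalized count of at least 0.5 (size factors of DESeq2). The quasi-likelihood test of edgeR 4.0.16 in R 4.3.3 was run with TMM factors and robust estimation, all 4 groups in 1 model and no covariates, and checked on simulated data. Depth and intervals cover counting error only. Correlations used log2 CPM with a prior count of 2. Shares were compared by exact permutation tests. Alternatives were other scalings, other filters, DESeq2 1.42.0, each sex alone, a replicate block, and leaving out each library.

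The 9 genes, the lists and the rule for the genes named were chosen with earlier results of these data known. Named were the 9 genes, the immunoglobulin constant genes, from each other list the 4 genes of lowest p in males, and the 5 genes most like Cd79a and Jchain, some of which are not reported here. Fcgr1, Fcgr3, Xbp1, Pigr, Fcgrt, Alas2, Cxcr5 and single variable segments were named after their values were seen, or as list members or markers. So were the plasma cell, survival and natural killer genes that did not pass.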

Additional observations from a re-analysis of the deposited data

Results flagged for a closer look

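In 76 groups of 7 values, 9 values from 6 libraries stood apart from the rest of their group by Dixon's criterion (a gap over 0.568 of the group's range), which chance gives in about 1 of 20 groups. Gaps were taken on log2 CPM for genes and on percentages for shares. On linear CPM, a scale added after seeing the data, 9 values of the 9 genes stood apart in place of 3, among them Ighm and Mzb1 in female SIRT6-tg 6 and Igkc in male SIRT6-tg 2. Male SIRT6-tg 2 had 83.5 CPM of Ighm against a group median of 15.3 and 0.957 CPM of Mzb1 against 0.248. Male WT 6 had 47.9 CPM of Jchain against a median of 23.3. Of heavy-chain constant counts, Ighm took 59.7% in female SIRT6-tg 6 (median 25.1%), Ighg1 took 6.27% in male SIRT6-tg 6 (median 2.10%) and 5.99% in female WT 3 (median 3.15%), and Ighg3 took 9.05% in male WT 2 (median 0.542%). The most counted kappa segment took 21.7% in male WT 2, where it was Igkv4-91 with 225 of 1035 counts (median 10.7%), and 50.1% in female SIRT6-tg 6 (median 10.4%). Male SIRT6-tg 2 and female SIRT6-tg 6 thus stood high in several of these readouts, which come from the same libraries and are not independent.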

How the results depend on the processing

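The count of 5 genes of the 9 lower in males was 5 with RLE size factors, upper-quartile factors, other filters and DESeq2, 7 with library size alone and with each sex fitted separately, and 4 to 6 with any 1 library left out. In females the count was 0 under every setting run, as between male and female WT. For the difference between the sexes it was 2 with library size alone, 1 with the expression filter of edgeR and 1 with DESeq2, and 0 to 2 with 1 library left out. It was 1 without male WT 1, female WT 4 or female SIRT6-tg 2, and 2 without male SIRT6-tg 2. Tnfrsf17 had no value with that filter, and none in females or in the difference with DESeq2.

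Same replicate numbers did not go with like expression, which cannot exclude a pairing by litter or cage. Of 14 same-numbered pairs, 5 correlated over 0.1 (range -0.28 to 0.27) and 1 correlated best with its own number. With the replicate block 5 of the 9 genes were lower in males, with Jchain at -1.82 (adjusted p = 0.00077) and Cd79a at -0.83 (adjusted p = 0.0144), and the block changed no call of the 9.

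Signs turned only near 0 in females or where 1 library decided. Mzb1 in females was -0.0039 with upper-quartile factors, -0.0103 with library size alone and -0.144 with the replicate block, and Ms4a1 was 0.0032 with DESeq2. With 1 library left out, the female values ran from -0.21 to 0.0631 for Cd79a, -0.36 to 0.0409 for Cd79b, -0.15 to 0.19 for Ms4a1, -0.63 to 0.41 for Ighm, -0.52 to 0.0168 for Igkc and -0.62 to 0.21 for Mzb1. The sex difference of Ighm ran from -1.61 to 0.0614, the last without female SIRT6-tg 6.

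The 2 called shares of constant genes were 0 with all constant-region counts as the denominator and 0 to 3 with 1 library left out. The 2 called shares of the most counted segment were 0 with heavy and kappa segments pooled and 1 to 2 with 1 library left out. Of correlated pairs there were 24 with a prior count of 0.5 and 22 with library size alone. The cause of these changes was not tested. Depth limits Tnfrsf17, Mzb1 and single variable segments most.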

Other observations

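Pigr, which encodes the receptor that carries polymeric IgA and IgM into bile, was at 1148, 1357 and 1900 CPM (lowest, median and highest) in male WT and at 1576, 1674 and 2130 CPM in male SIRT6-tg. It rose by 0.34 on the log2 scale (SE 0.12, adjusted p = 0.0350 by edgeR's quasi-likelihood test), while Jchain and Igha fell. The call was lost with library size alone (0.06, adjusted p = 0.773), with RLE size factors (0.30, adjusted p = 0.0724) and with upper-quartile factors (0.26, adjusted p = 0.126). With single libraries left out the rise in males was also lost without male WT 1, 2, 3, 4, 6 or 7, male SIRT6-tg 1, 2, 3, 4, 6 or 7, female WT 5, 6 or 7, or female SIRT6-tg 3 or 7. In females Pigr was at 1726 to 2772 CPM in WT and 1559 to 2468 CPM in SIRT6-tg, overlapping male WT, and the log2 value of male against female WT was -0.72 (SE 0.12, adjusted p = 6.74e-05).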
